A study of Mus musculus with 4 samples.

Results

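The chemokine receptors Ccr1, Ccr2, Ccr3, Ccrl2, Cx3cr1 and Cxcr4, all known from myeloid cells, were followed in the RNA of early osteoclast cultures with and without MYC. They were chosen by name, with earlier results of these data known, as 6 of the 28443 genes in the deposited count table. The cells were bone marrow-derived macrophages (BMDMs) from mice 8 weeks old, cultured for 1 day with RANKL at 50 ng/ml, the cytokine that starts osteoclast differentiation. There were 2 MYC-deficient libraries (strain MYC f/f LysM cre) and 2 MYC-WT libraries (strain LysM cre), so that all 4 carried the Cre recombinase, which this allele expresses from the lysozyme M locus in myeloid cells. The study describes the replicates as biological, and the p-values below measure only the spread between these 4 libraries.

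Chemokine receptors are G protein-coupled receptors that sense gradients of small secreted chemokines and steer leukocyte migration, mostly through inhibitory G proteins. CCR2 binds CCL2 and its relatives and brings inflammatory monocytes out of the bone marrow, whereas CXCR4 binds CXCL12 and holds cells in the marrow. CX3CR1 binds the membrane-bound chemokine fractalkine (CX3CL1) and is carried by monocytes, osteoclast precursors and microglia. CCR1 binds CCL3, CCL5 and CCL9, and CCR3, the eotaxin receptor, is best known from eosinophils. CCRL2 is an atypical receptor that binds chemerin and does not signal through G proteins.

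The promoters of the 3 receptors that differed between the genotypes are shown here because they lie at an annotated start of each gene; which start these cells use was not measured. Each runs 5′ to 3′ on the strand of its gene, from 250 bases before the annotated start to 50 after it, in RefSeq's sequence of GRCm38.p6. Ccr2 is on the plus strand at chr9:124101933-124102232, Cx3cr1 on the minus strand at chr9:120068247-120068546, and Ccr3 on the plus strand at chr9:124021721-124022020. Capitals mark matches to the motifs searched on both strands: the E-box CACGTG that MYC binds with MAX, the PU.1 core GAGGAA, the AP-1 motif TGANTCA and the TATA motif TATAAA.
Ccr2: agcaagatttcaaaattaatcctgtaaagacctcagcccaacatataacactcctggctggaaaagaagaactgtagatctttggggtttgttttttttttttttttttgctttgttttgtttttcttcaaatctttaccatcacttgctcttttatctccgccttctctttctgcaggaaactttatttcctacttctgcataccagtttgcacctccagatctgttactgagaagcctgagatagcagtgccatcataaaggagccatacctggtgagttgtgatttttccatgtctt
Cx3cr1: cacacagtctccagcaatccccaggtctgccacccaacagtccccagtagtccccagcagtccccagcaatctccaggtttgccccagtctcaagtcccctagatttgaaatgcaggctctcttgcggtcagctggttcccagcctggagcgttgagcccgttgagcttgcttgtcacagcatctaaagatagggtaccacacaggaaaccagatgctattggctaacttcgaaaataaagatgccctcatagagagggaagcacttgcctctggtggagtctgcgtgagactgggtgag
Ccr3: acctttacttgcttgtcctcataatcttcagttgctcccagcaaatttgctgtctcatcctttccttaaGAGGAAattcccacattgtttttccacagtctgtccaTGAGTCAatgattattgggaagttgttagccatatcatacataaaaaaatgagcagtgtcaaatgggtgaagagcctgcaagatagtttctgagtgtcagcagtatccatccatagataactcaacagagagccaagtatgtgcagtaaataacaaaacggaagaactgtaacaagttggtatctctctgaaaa
No window of the 6 receptors held CACGTG, which is present in 7.2% of the 32851 RefSeq promoters of this length. The Ccr3 window held 1 GAGGAA, 181 bases before the start, and 1 TGANTCA, 144 bases before it; these occur in 28.3% and 7.8% of promoters. The Ccr2 and Cx3cr1 windows held none of the motifs. Ccr2 and Ccr3 had AT-rich windows, with 38.0% and 39.0% GC and 1 CpG each, against a median of 52.7% GC and 7 CpG over all promoters. Cx3cr1 had 54.3% GC and 5 CpG. Of the other receptors, Cxcr4 had a CpG-rich window with 59.3% GC, 20 CpG and TATAAA matches on both strands, Ccr1 had 1 GAGGAA, and the 3 windows of Ccrl2 had no match. These matches describe the letters only.

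Total counts per library were 27544806 to 35794698, and values below are CPM, each count scaled to a library total of 1e+06. Myc itself, the deleted gene, had 17.7 and 24.2 CPM in MYC-deficient libraries, against 230 and 250 CPM in MYC-WT libraries. edgeR's quasi-likelihood test was run over the 13436 genes whose counts sufficed, and genes with an adjusted p under 0.05 and a change over 1.5-fold were called. Of the tested genes 6.06% were called higher and 9.91% lower in MYC-deficient cells. The cells are labelled early osteoclasts: of 6 macrophage markers Adgre1, Csf1r and Cd68 were called higher in MYC-deficient cells, with summed marker levels of 4749 and 4439 CPM against 3119 and 2649 CPM in MYC-WT cells. Leaving out either MYC-WT library ended all 3 of these calls. The osteoclast marker Ctsk, cathepsin K, had 85.1 and 204 CPM in MYC-deficient and 279 and 559 CPM in MYC-WT libraries, and Calcr, which marks mature osteoclasts, had no count. Of 5 tested osteoclast markers the quasi-likelihood test called 1, Oscar, lower in MYC-deficient cells (a call lost without MYC-deficient replicate 1 or either MYC-WT library), and edgeR's likelihood ratio and exact tests called 3 lower. Mmp9 at 0.49 and Dcstamp at 0.37 on the log2 scale had the other sign and were not called. Markers of T and NK cells and of basophils and mast cells, with 1 tested gene each, summed to at most 4.66 CPM in any library, and those of B cells, stromal cells and erythroid cells were too low to be tested. Stromal markers stood apart in MYC-deficient replicate 1, at 5.20 CPM against at most 0.391 CPM in the other libraries, with 98 counts of the collagen gene Col1a1 and 0 elsewhere. Lyz2, the gene whose locus drives the Cre, was at 9.44 and 11.3 CPM in MYC-deficient and 19.0 and 9.30 CPM in MYC-WT libraries. It is also 1 of the 6 macrophage markers and was the only 1 of them with a negative log2 fold change (-0.42, not called).

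Among the 6 receptors, Ccr2 and Cx3cr1 were called higher and Ccr3 lower in MYC-deficient cells, and Ccr1, Ccrl2 and Cxcr4 were not called. That is 2 of 6 higher beside 6.06% of all genes tested, and 1 of 6 lower beside 9.91%. Because the 6 were chosen with earlier results of these data known, these shares are only a description. The median log2 fold change of the 6 was 0.78, and that of all genes tested was -0.01. In CPM, both MYC-deficient libraries lay above both MYC-WT libraries for 4 receptors (Ccr2, Cx3cr1, Cxcr4 and Ccrl2) and below them for Ccr3. With 2 libraries per genotype such separation is common, at 27.5% of tested genes above and 35.9% below. In bulk RNA, a change in the number of cells that carry a receptor and a change in its RNA per cell cannot be told apart.

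**Figure D1:**
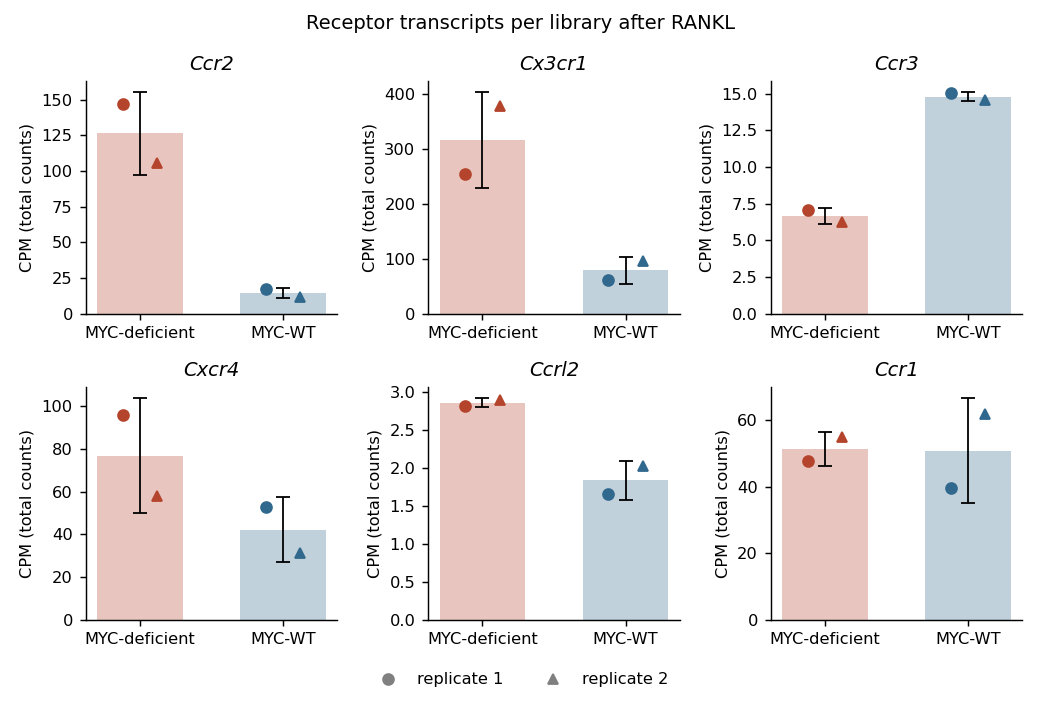
CPM of the 6 receptors in each library, with MYC-deficient libraries on the left and MYC-WT libraries on the right of each panel; points are libraries and bars show the mean and SD (n = 2). The MYC-deficient libraries lie well above the MYC-WT libraries for Ccr2 and Cx3cr1 and below them for Ccr3, while the genotypes overlap for Ccr1.

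Ccr2, the receptor of inflammatory monocytes for CCL2, had the largest change of the 6. Its counts were 5255 and 2917 in the MYC-deficient libraries and 564 and 342 in the MYC-WT libraries. In CPM these were 147 and 106 in MYC-deficient cells, against 17.0 and 11.7 in MYC-WT cells. Even the lower MYC-deficient library was 6.24 times the higher MYC-WT library. MYC-deficient cells averaged 126 ± 28.9 CPM, against 14.4 ± 3.70 CPM for MYC-WT cells (SD, n = 2 each). The log2 fold change was 3.17 (standard error 0.24, 95% interval 2.55 to 3.78), an 8.97-fold higher level in MYC-deficient cells with an adjusted p of 0.00723 by edgeR's quasi-likelihood test. The call held under each of the 15 alternative analyses, between 2.94 and 3.43 on the log2 scale. Those that changed only the fold threshold reuse the same fit and could not have ended it. Ccr2 (ENSMUSG00000049103) lies at chr9:124101950-124113557 on the plus strand of mm10.

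Markers of monocytes, the cells best known for CCR2, were measured beside it. Their summed level over 7 genes was 144 and 70.5 CPM in MYC-deficient libraries and 58.1 and 36.0 CPM in MYC-WT libraries, and their median log2 fold change was 1.52. Of the 7, 1 had a negative log2 fold change, Vcan (-0.56, not called). It had 5.53 and 12.3 CPM in MYC-deficient against 10.1 and 16.7 CPM in MYC-WT libraries. The quasi-likelihood test called 1 of the 7 higher, beside 6.06% of all genes, while 3 had an unadjusted p under 0.05, DESeq2 called 4 and edgeR's likelihood ratio and exact tests 3. The 1 called, Fn1 (fibronectin), was at 10.6 and 15.9 CPM in MYC-deficient against 2.89 and 2.81 CPM in MYC-WT libraries. Ly6c2, the Ly6C antigen of inflammatory monocytes, had 10.1 and 3.30 CPM in MYC-deficient and 2.41 and 1.48 CPM in MYC-WT libraries, with an adjusted p of 0.0845 by edgeR. The number of monocyte markers called higher ranged from 0 to 6 when 1 library was left out, being 6 without MYC-deficient replicate 2 and 0 without MYC-WT replicate 2. Dendritic cell markers, 7 genes, summed to 6.90 and 4.07 CPM in MYC-deficient and 3.22 and 1.54 CPM in MYC-WT libraries. Of 6 tested, the quasi-likelihood test called 1 higher, beside 6.06% of all genes. This was Cd209a, with 28 and 20 counts in MYC-deficient against 3 and 1 counts in MYC-WT libraries, though not without either MYC-WT library. DESeq2 called 0 of the 6 higher, and edgeR's likelihood ratio and exact tests called 2. The part of other cell types in the Ccr2 difference was not tested.

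Cx3cr1, the fractalkine receptor, was the most abundant of the 6 in MYC-deficient cells, also per summed length of exons. Its counts were 9080 and 10397 in the MYC-deficient libraries and 2035 and 2804 in the MYC-WT libraries, or 254 and 377 CPM against 61.2 and 96.2 CPM. All MYC-deficient values were above the MYC-WT values, and the closest pair of libraries across the genotypes differed 2.64-fold. MYC-deficient cells averaged 316 ± 87.5 CPM, against 78.7 ± 24.7 CPM for MYC-WT cells (SD, n = 2 each). The log2 fold change was 2.03 (standard error 0.31, 95% interval 1.25 to 2.81), 4.08-fold higher in MYC-deficient cells, with an adjusted p of 0.0161 by edgeR. This call too held under all 15 alternatives, between 1.70 and 2.42, though those on the fold threshold alone could not have ended it. Cx3cr1 (ENSMUSG00000052336) is annotated on the minus strand of chromosome 9 from 119901616 to 120069879.

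A few bases of Cx3cr1 are shared with other genes, which bears on how its reads can be assigned. Its antisense neighbour Gm33858 overlaps its exons by 78 bases, and no source states whether counting used strand, so reads of that stretch cannot be told apart. Gm33858 had 63 and 81 counts in MYC-deficient and 8 and 13 counts in MYC-WT libraries, far fewer than Cx3cr1. It was called higher in MYC-deficient cells with a log2 fold change of 2.80 and an adjusted p of 0.0201 by edgeR, a call that was lost without either MYC-WT library. For Ccr2, 1.91% of the stretches of 50 bases in its transcripts occur in another gene, and for Cx3cr1 the share is 0.269%. Ccr1, Ccr3, Ccrl2 and Cxcr4 share none.

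Ccr3, the eotaxin receptor, was the only one of the 6 to fall. Its counts were 252 and 172 in the MYC-deficient libraries and 499 and 425 in the MYC-WT libraries. In CPM the MYC-deficient libraries had 7.04 and 6.24, and the MYC-WT libraries 15.0 and 14.6. The libraries of each genotype lay close together and the genotypes did not overlap. MYC-deficient cells averaged 6.64 ± 0.563 CPM, against 14.8 ± 0.306 CPM for MYC-WT cells (SD, n = 2 each). The log2 fold change was -1.13 (standard error 0.16, 95% interval -1.52 to -0.73), 2.18-fold lower in MYC-deficient cells, with an adjusted p of 0.0136 by edgeR. Its size hardly moved when libraries were left out, but the adjusted p became 0.0576 when MYC-WT replicate 1 was left out and 0.0840 when replicate 2 was. Ccr3 (ENSMUSG00000035448) lies at chr9:124021972-124031689 on the plus strand.

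Eosinophil markers were listed because CCR3 is known from those cells. The 5 genes summed to 12.8 and 10.1 CPM in MYC-deficient libraries and 1.93 and 2.30 CPM in MYC-WT libraries. The 2 that could be tested were not called by edgeR's quasi-likelihood test, although both had an unadjusted p under 0.05 and passed with DESeq2: Siglecf had 1.79 and 8.02 CPM in MYC-deficient against 0.271 and 1.17 CPM in MYC-WT libraries, and Prg2, the eosinophil major basic protein, 10.2 and 2.03 against 1.44 and 1.10 CPM. Epx, the eosinophil peroxidase, had 13 and 1 counts in MYC-deficient and 4 and 1 in MYC-WT libraries, and Il5ra was found only in MYC-deficient replicate 1, with 5 counts. The part of eosinophils in the Ccr3 difference was not tested.

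Ccr1, a receptor for CCL3, CCL5 and CCL9, did not differ beyond the spread between libraries. It had 47.9 and 55.1 CPM in MYC-deficient libraries, against 39.7 and 62.1 CPM in MYC-WT libraries, so that the MYC-WT values enclosed the MYC-deficient ones. The log2 fold change of 0.04 had a standard error of 0.24, a 95% interval of -0.57 to 0.65 and, by edgeR, an adjusted p of 0.919. The sign turned when 1 library was left out, with -0.079 without MYC-deficient replicate 2 and -0.26 without MYC-WT replicate 1. Ccr1 (ENSMUSG00000025804) lies at chr9:123962124-123968692 on the minus strand.

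Cxcr4, the CXCL12 receptor, was higher in both MYC-deficient libraries, with 95.8 and 57.9 CPM against 53.0 and 31.4 CPM in MYC-WT libraries. The gap between the genotypes was small beside the spread within them, since the lower MYC-deficient library was only 1.09 times the higher MYC-WT library. MYC-deficient cells averaged 76.9 ± 26.8 CPM, against 42.2 ± 15.2 CPM for MYC-WT cells (SD, n = 2 each). The log2 fold change was 0.89 (standard error 0.32, 95% interval 0.07 to 1.71), and with an adjusted p of 0.114 by edgeR it was not called. It passed without MYC-deficient replicate 2, at 1.20 on the log2 scale with an adjusted p of 0.0186, and in several other fits of the same counts. Cxcr4 (ENSMUSG00000045382) is the 1 member on another chromosome, at chr1:128588199-128592293 on the minus strand.

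Ccrl2, the atypical chemerin receptor, had the lowest level of the 6, also per summed length of exons. Its counts were 101 and 80 in MYC-deficient and 55 and 59 in MYC-WT libraries. These were 2.82 and 2.90 CPM in MYC-deficient cells, against 1.65 and 2.02 CPM in MYC-WT cells. The log2 fold change was 0.66 (standard error 0.26, 95% interval 0.02 to 1.31), and with an adjusted p of 0.130 by edgeR it was not called. Ccrl2 (ENSMUSG00000043953) lies at chr9:111054486-111057519 on the minus strand.

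**Figure D2:**
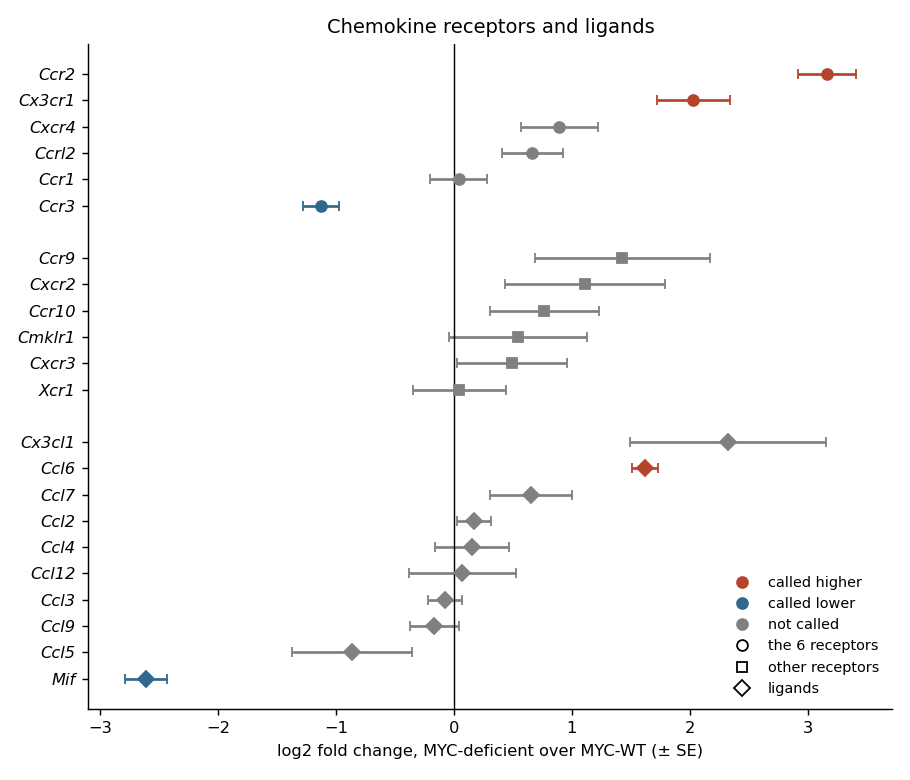
Log2 fold change of MYC-deficient over MYC-WT cells for the 6 receptors (circles), the other tested chemokine receptors (squares) and the tested ligands (diamonds), with bars for the standard error of edgeR's fit; red marks genes called higher and blue genes called lower. Ccr2 at 3.17 and Cx3cr1 at 2.03 stand above, Ccr3 at -1.13 below, and no receptor outside the 6 was called; among the ligands Ccl6 lies at 1.62 and Mif at -2.61.

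**Figure D3:**
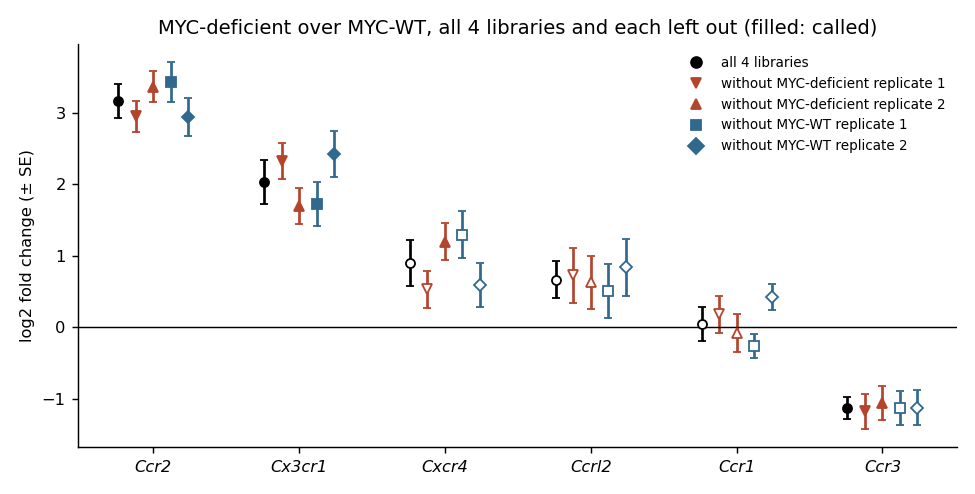
Log2 fold change of MYC-deficient over MYC-WT cells for each of the 6 receptors with all 4 libraries and with each library left out in turn, with bars for the standard error and filled symbols where the gene was called. Ccr2 and Cx3cr1 keep filled symbols throughout, Ccr3 keeps its size (-1.13 with all libraries) but is open without either MYC-WT library, and Ccr1 lies on both sides of 0.

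To compare levels between receptors, CPM were divided by the summed length in kilobases of each gene's exons, taken over all its annotated transcripts. In MYC-deficient cells Cx3cr1 ranked first with 70.0 ± 19.4 CPM per kilobase, followed by Cxcr4 with 42.5 ± 14.8, Ccr2 with 18.7 ± 4.28, Ccr1 with 18.2 ± 1.80, Ccr3 with 2.03 ± 0.172 and Ccrl2 with 1.10 ± 0.0225 (SD, n = 2). In MYC-WT cells Cxcr4 ranked first with 23.3 ± 8.42 CPM per kilobase, followed by Ccr1 with 18.0 ± 5.58, Cx3cr1 with 17.5 ± 5.49, Ccr3 with 4.52 ± 0.0935, Ccr2 with 2.12 ± 0.548 and Ccrl2 with 0.708 ± 0.101 (SD, n = 2). Neighbours in these orders often overlapped: the library ranges of Ccr2 and Ccr1 did so in MYC-deficient cells, as did those of Cxcr4, Ccr1 and Cx3cr1 in MYC-WT cells. Ccr2 ranked far above Ccr3 in MYC-deficient cells and below it in MYC-WT cells. In MYC-WT cells the counts of both were alike, and the exons summed to 6760 bases for Ccr2 and 3272 for Ccr3. The ratio of Ccr2 counts to Ccr3 counts was 20.9 and 17.0 in MYC-deficient libraries, against 1.13 and 0.805 in MYC-WT libraries. Summed over the 6 receptors, the level was 151 and 154 CPM per kilobase in MYC-deficient and 64.6 and 67.6 CPM per kilobase in MYC-WT libraries, close between libraries of 1 genotype although single receptors varied.

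The receptors also differed between the libraries that carry the numbers 1 and 2, in a like way in both genotypes. Cxcr4 in replicate 1 was 1.65 times its level in replicate 2 in MYC-deficient cells and 1.69 times in MYC-WT cells. Ccr2 had the same direction, at 1.39 times in MYC-deficient and 1.45 times in MYC-WT cells. Cx3cr1 had the other one, being 1.49 times higher in replicate 2 than in replicate 1 of MYC-deficient cells and 1.57 times higher in MYC-WT cells. Neutrophil markers moved with the number as well: all 7 tested ones were higher in replicate 1 than in replicate 2 of both genotypes. The same held for 5 of 7 monocyte markers, and for 7578 of all 28443 genes, tested or not. Of all these genes, 4413 had no count in any library and could not be higher in either, so this share is not one of tested genes. The 8 listed neutrophil markers summed to 278 and 99.3 CPM in MYC-deficient and 102 and 44.6 CPM in MYC-WT libraries. Ly6g, the antigen that defines neutrophils, had 4 and 2 counts in MYC-deficient and 2 and 2 in MYC-WT libraries. None of the 7 was called between the genotypes by edgeR's quasi-likelihood test, with a median log2 fold change of 1.35; 3 had an unadjusted p under 0.05 and DESeq2 called 2. Their part in the spread of Cxcr4 and Ccr2 was not tested. What the numbers stand for is not stated.

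**Figure D4:**
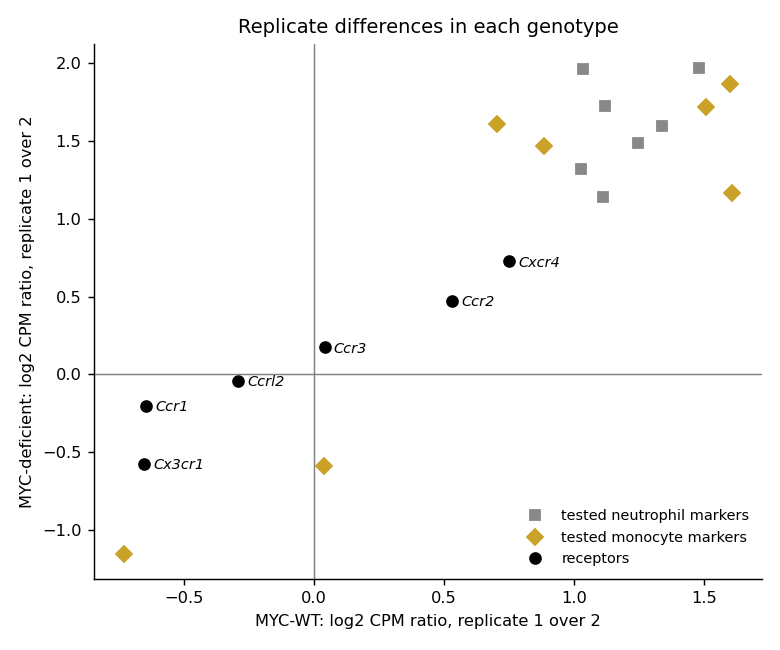
Log2 ratio of replicate 1 over replicate 2 in CPM, in MYC-deficient cells on the y axis and in MYC-WT cells on the x axis, for the 6 receptors and for markers of neutrophils and monocytes. Cxcr4 and Ccr2 lie above 0 in both genotypes and Cx3cr1 below 0 in both.

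Ccr1, Ccr3 and Ccr2 stand in a row on chromosome 9, where the start of Ccr3 is 53.3 kb from that of Ccr1 and the start of Ccr2 80.0 kb further on. The called neighbours Ccr3, at -1.13 on the log2 scale, and Ccr2, at 3.17, differed in direction, and Ccr1 beside them was at 0.04. Of 11 other tested genes within 500 kb of the row, none was called by edgeR's quasi-likelihood test and 3 had an unadjusted p under 0.05. Their log2 fold changes lay between -1.38 and 1.43, and DESeq2 called 1, Gm10052 at -1.38, lower. Cx3cr1 starts 4032 kb and Ccrl2 13044 kb from Ccr2. Around Cx3cr1, 11 other genes were tested, of which Gm33858 was called higher and the ribosomal protein gene Rpsa lower (log2 fold change -1.24). Around Ccrl2 1 of 12, Nbeal2, was called higher (0.93). Single calls of this kind are near the 6.06% called higher and 9.91% called lower of all genes tested. Both the Rpsa and the Nbeal2 call were lost without MYC-WT replicate 2. None of the 6 other tested genes around Cxcr4 was called by edgeR or DESeq2, although Dars at -0.56 (adjusted p 0.0207 by edgeR) and Mcm6 at -0.55 (adjusted p 0.0292) missed only the threshold of 1.5-fold.

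**Figure D5:**
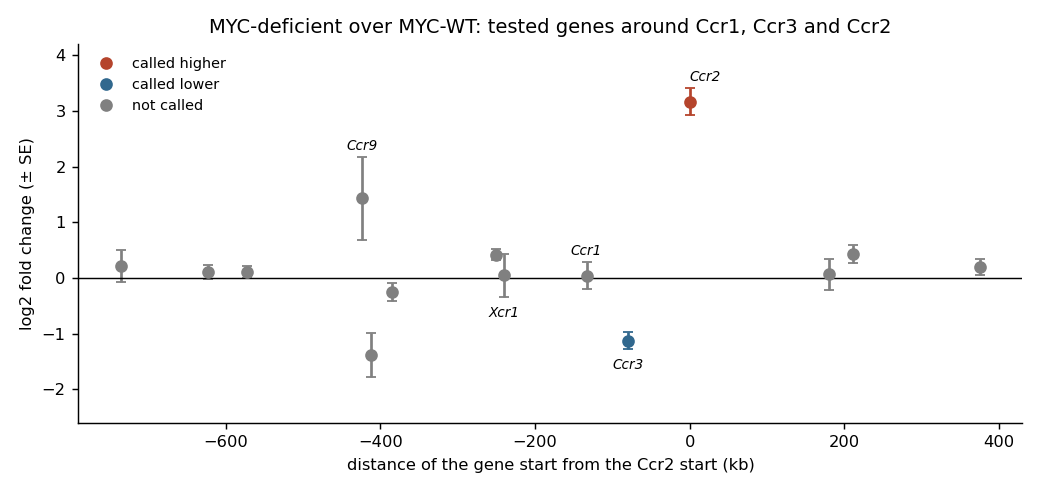
Log2 fold change of MYC-deficient over MYC-WT cells, with its standard error, for 14 tested genes within 500 kb of the row of Ccr1, Ccr3 and Ccr2, against the distance of each gene's start from the start of Ccr2 in kilobases. Ccr2 at 3.17 and Ccr3 at -1.13 are the called genes, and the other 12 are grey.

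Genes with a pattern like that of each receptor were found by the distance between log2 CPM values, each gene centred on its own mean over the 4 libraries, among 11415 protein-coding genes. Nearest to Ccr2 was Fcrls, an Fc receptor-like gene known from microglia, at a distance of 0.369, with 37.3 and 22.7 CPM in MYC-deficient and 5.18 and 2.98 CPM in MYC-WT libraries. Tox2 and Gpr141 came next. Nearest to Cx3cr1 were Tg at 0.195, Ch25h, the cholesterol 25-hydroxylase, at 0.303 and Lilra6 at 0.343. Nearest to Ccr3 were Mphosph10, a ribosome biogenesis factor, at 0.0376, Thnsl2 at 0.0468 and Tomm70a, a mitochondrial import receptor, at 0.0537. Cxcr4 had Ahrr, the aryl hydrocarbon receptor repressor, at 0.111, followed by Ms4a14 and Heg1, Ccrl2 had Usp27x at 0.0802, Slc41a3 and Zfand3, and Ccr1 had Trpt1 at 0.0631, Rnasek and Ankrd55. Some of these genes rest on few counts. Tox2 had 53 and 43 counts in MYC-deficient and 4 and 3 in MYC-WT libraries. Rnasek had 9 and 9 counts in MYC-deficient and 7 and 11 in MYC-WT libraries. With 4 libraries, likeness of this kind is a description.

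Beyond the 6, 18 other chemokine receptor genes were listed, and 6 of them passed the filter on low counts. With the filter, none was called by edgeR's quasi-likelihood, likelihood ratio or exact test, DESeq2 or limma, and 0 had an unadjusted p under 0.05, although all 6 log2 fold changes were above 0 (median 0.66). Cmklr1, the signalling receptor for chemerin, had 29.3 and 11.0 CPM in MYC-deficient and 20.2 and 8.03 CPM in MYC-WT libraries. Cxcr2, the neutrophil receptor, had 2.43 and 0.581 CPM in MYC-deficient against 0.782 and 0.652 CPM in MYC-WT libraries. Cxcr3 had 2.96 and 5.30 CPM in MYC-deficient and 1.99 and 3.98 CPM in MYC-WT libraries. Ccr9, Ccr10 and Xcr1 stayed under 2 CPM in every library, 11 more receptors had from 1 to 49 counts over the 4 libraries, and Ackr3, the scavenger of CXCL12, had none. When MYC-deficient replicate 2 was left out, some of these receptors were called higher, among them Cxcr2 at 1.76 on the log2 scale. Without the filter the quasi-likelihood test called 3, among them Ccr9 (log2 fold change 1.42, adjusted p 0.0184) and Cxcr2 (1.10, adjusted p 0.0265). That fit gave Ccr9 a standard error of 0.47, against 0.75 with the filter. It also gave Ccr2 an adjusted p of 4.3e-76, against 0.00723 with the filter.

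Of 16 listed ligands of the 6 receptors, 10 were tested, and the quasi-likelihood test called 1 higher and 1 lower in MYC-deficient cells, close to the 6.06% and 9.91% of all genes. DESeq2 and edgeR's likelihood ratio and exact tests called 2 higher. Ccl6, a CCR1 ligand, rose to 120 and 125 CPM in MYC-deficient libraries, against 39.3 and 41.9 CPM in MYC-WT libraries, a log2 fold change of 1.62 with an adjusted p of 0.00711 by edgeR. Mif, which also binds CXCR4, fell to 27.6 and 33.3 CPM in MYC-deficient libraries, against 170 and 209 CPM in MYC-WT libraries (log2 fold change -2.61, adjusted p 0.00711 by edgeR). Ccl2, the ligand of CCR2, had 32.6 and 34.1 CPM in MYC-deficient and 27.2 and 33.1 CPM in MYC-WT libraries. Ccl9, a CCR1 ligand and the most abundant of the list, had 1207 and 1541 CPM in MYC-deficient and 1384 and 1758 CPM in MYC-WT libraries. Cx3cl1, fractalkine itself, had 21 and 65 counts in MYC-deficient and 6 and 12 counts in MYC-WT libraries, with a log2 fold change of 2.33 and an adjusted p of 0.110 by edgeR; it was called higher with DESeq2 (adjusted p 0.0456) and without MYC-deficient replicate 1 (adjusted p 0.00885). Cxcl12 had 1 and 1 counts in MYC-deficient and 4 and 0 in MYC-WT libraries, and the eotaxin Ccl11 had 1 count in all.

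Genes that couple chemokine receptors to the cell's interior or switch them off were measured as a list of 33 names, of which 31 were tested. This list too was chosen with earlier results of these data known, so its shares are only a description. In MYC-deficient cells 9 of the 31 were called higher and 0 lower by edgeR's quasi-likelihood test (0 lower with DESeq2 too, and 1 with an unadjusted p under 0.05), beside 6.06% and 9.91% of all genes, and the median log2 fold change was 0.50 against -0.01 over all genes. Fgr, a Src family kinase of myeloid cells, changed most, with 150 and 173 CPM in MYC-deficient against 39.2 and 41.8 CPM in MYC-WT libraries, a log2 fold change of 2.02. The kinase Ptk2b, the phosphoinositide 3-kinase subunit Pik3cg, the phospholipase Plcb2, the Rac activator Dock2 and the G protein subunit Gng2 also rose, by 0.60 to 0.91 on the log2 scale. So did Arrb1, which desensitizes receptors, and Rgs14 and Rgs18, which shorten G protein signals, by 0.77 to 0.93. Gnai2, the main inhibitory G protein alpha subunit of leukocytes, had 1248 and 1396 CPM in MYC-deficient and 868 and 948 CPM in MYC-WT libraries, and its log2 fold change of 0.57 was under the threshold of 1.5-fold. Most of these 9 calls were lost without either MYC-WT library. Such a fit leaves 1 library of that genotype, and without MYC-WT replicate 2 the fewest of all genes were called higher. All 9 log2 fold changes stayed above 0 with any library left out, the lowest being 0.45 for Plcb2.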

How the data were processed

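RNA-seq libraries were made from BMDMs after 1 day of RANKL, 2 from MYC-deficient and 2 from MYC-WT cells, grouped by the submitters' genotype label. The authors deposited raw counts per gene for 28443 genes, the same counts for the genes they kept, and log2 CPM of those genes. Tools named in the submitters' processing notes are STAR 2.7.3a, bcl2fastq 1.8.4, edgeR and fastp, with the mm10 build. The tool that counted reads, its use of strand and the annotation release were not given in the sources used here. Columns with the authors' fold changes and p-values were not used.

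The test was edgeR 4.0.16 in R 4.3.3 (filterByExpr with a minimum count of 10, TMM factors of 0.982 to 1.02, quasi-likelihood test with 2 residual degrees of freedom, Benjamini-Hochberg adjustment over 13436 genes). The common biological coefficient of variation was 0.167. Genes with an adjusted p under 0.05 and over 1.5-fold were called. These thresholds are also the study's, but the numbers of genes called differ from those it reports. Dividing the log2 fold change by the root of F gave the standard error, and intervals are at 95%. They use the total degrees of freedom of the test, which add to the 2 residual ones a part borrowed across genes. CPM in the text are of the total counts, without TMM factors, and SDs are over 2 libraries. The fitting code was tested on simulated data. Sequences are from RefSeq (GRCm38.p6), and exon lengths, coding sequences and stretches of 50 bases from GENCODE M21.

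The receptors and gene lists were chosen with earlier results of these data known. Named genes are Myc, the 6 receptors, other chemokine receptors with at least 10 counts, called genes of the ligand, coupling and marker lists with up to 3 abundant genes that were not called, defining markers at 0, the 3 protein-coding genes nearest in pattern, and genes within 500 kb of the receptors. Cx3cl1, Cxcl12, Ccl11, Ly6c2, Vcan, Ly6g, Siglecf, Prg2, Epx, Il5ra, Ctsk, Mmp9, Dcstamp, Col1a1 and Lyz2 were named in addition, after their values were seen. Ccrl2 lies apart from the row of Ccr1, Ccr3 and Ccr2, so neighbours were taken around each receptor. A few genes of the lists and loci are not reported here and were left out of their counts. Alternatives were DESeq2 1.42.0, limma-trend (limma 3.58.1) on the deposited log2 CPM, the exact and likelihood ratio tests of edgeR, RLE scaling or none, the authors' filtered genes or all genes with a count, a fold threshold of 2 or none, a block for the replicate number, and the omission of each library in turn.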

Additional observations from a re-analysis of the deposited data

How the results depend on the processing

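Ccr2 and Cx3cr1 stayed called higher in MYC-deficient cells under all 15 alternatives, with leave-one-out ranges of 2.94 to 3.43 and 1.70 to 2.42 on the log2 scale. The alternatives that changed only the fold threshold could not have ended these calls. Ccr3 ranged from -1.18 to -1.06 when 1 library was left out, and its call was lost without either MYC-WT library, which left 0 receptors called lower (range 0 to 1 over the leave-outs). Cxcr4 ranged from 0.53 to 1.29 over the leave-outs. It passed with no filter (log2 fold change 0.89), with DESeq2 (0.92) and with edgeR's likelihood ratio and exact tests (0.89 each). The fit with no filter gave Cxcr4 a standard error of 0.16, against 0.32 with the filter. The cause of these differences was not tested. Ccrl2 ranged from 0.50 to 0.84. The sign was not stable over the leave-outs for Ccr1 (-0.26 to 0.43, below 0 without MYC-deficient replicate 2 and again without MYC-WT replicate 1) and for Cxcr2 (-0.24 to 1.76, the highest value being called, without MYC-deficient replicate 2) and, none of them called, for Xcr1 (-0.17 to 0.22), Cmklr1 (-0.29 to 1.33) and Ccl9 (-0.37 to 0.042). Over all genes, 814 were called higher and 1331 lower. A fold threshold of 2 gave 349 and 689, no filter gave 1385 higher, and leave-outs gave 65 to 1011 higher and 199 to 1281 lower, lowest without MYC-WT replicate 2. No scaling moved the median of all genes by over 0.1 on the log2 scale.

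The groups share replicate numbers, but nothing states that libraries with the same number belong together, and there are only 2 pairs. The deviations of replicate 1 from its genotype's mean correlated at 0.499 between the genotypes, and the second principal component, with 24.2% of the variance, separated the numbers. With the replicate number as a block, 4 receptors were called higher, adding Cxcr4 (log2 fold change 0.90, adjusted p 0.000767 by edgeR) and Ccrl2 (0.67, adjusted p 0.0436), 1 further chemokine receptor passed, and 1400 of all genes were called higher. The block leaves 1 residual degree of freedom. Depth limits the low receptors most: Ccrl2 rests on 55 to 101 counts per library.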
